A study of Mus musculus with 28 samples.

Results

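The clustered histone genes encode the linker histone H1 and the core histones H2A, H2B, H3 and H4 and lie side by side in a few tight gene clusters. Their promoter acetylation was examined in male mouse germ cells, where H3K27ac, a histone acetylation that marks active gene starts and enhancers, was mapped by ChIPmentation, a chromatin immunoprecipitation in which a transposase adds the sequencing adapters. The members were the peaks classed as promoter in the H3K27ac tables whose gene column held, alone or in a list, a symbol starting with Hist1h, Hist2h, Hist3h or Hist4h. This gave 719 of 471458 H3K27ac peaks over all libraries, 63 genes and 50 promoters of 15033. A promoter here is a group of listed gene starts less than 1000 bp apart, because divergent histone genes share 1 stretch of DNA. Its value in a library is the highest fold enrichment of a peak summit within 1000 bp, where fold enrichment is the deposited ratio of the signal height to a background height.

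All mice were C57BL/6, and each of the 6 H3K27ac groups had 2 libraries. Thy1+ spermatogonia, which include the stem cells, and c-Kit+ spermatogonia, which have begun to differentiate, came from testes at postnatal day 7, both from wild-type mice (WT) and from mice with a knockout of Scml2 (KO), a germline Polycomb-group gene. Pachytene spermatocytes (PS), in meiotic prophase, and round spermatids (RS), the haploid cells after meiosis, came from testes of adult Scml2 knockout mice. H3K27ac of WT spermatocytes and spermatids was not analysed here, so both comparisons with adult cells are within the knockout, and the step from c-Kit+ spermatogonia to PS also differs in the age of the mice. The labels did not say whether replicates came from separate animals, so p-values measure only the spread between these samples, which may be technical.

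Most clustered histone genes are transcribed during S phase to package newly copied DNA, and their mRNAs end in a stem-loop bound by the protein Slbp instead of a poly(A) tail. Male germ cells make additional forms from the same clusters: Hist1h1t encodes the linker histone H1t of spermatocytes and spermatids, and Hist1h2aa and Hist1h2ba encode the testis forms TH2A and TH2B, which replace much of the usual H2A and H2B before protamines package the sperm genome. Genes for H2A and H2B are often arranged head to head around a shared promoter.

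The 63 genes comprised 6 for H1, 16 for H2A, 17 for H2B, 12 for H3 and 12 for H4, and all 63 matched a gene in RefSeq. Of the 50 promoters, 12 served genes of more than 1 histone type, 11 of them pairing H2A with H2B. On mm10, 13 promoters of 18 genes lay on chromosome 13 between 21716143 and 22043230, here called the 21.7 Mb cluster, and 26 promoters of 31 genes on the same chromosome between 23531044 and 23934462, the 23.5 Mb cluster. Another 8 promoters of 10 genes lay on chromosome 3 between 96219916 and 96269700, 2 promoters of 3 genes on chromosome 11 between 58948911 and 58954685, and Hist4h4 alone on chromosome 6 at 136804431. The chromosome 3 cluster holds near-identical copies (Hist2h2aa1 with Hist2h2aa2, and Hist2h3c1 with Hist2h3c2), so values at those promoters are uncertain: how reads that map to both copies were treated is not given in the sources used here. The same limit holds for Hist1h4j and Hist1h4k in the 21.7 Mb cluster, whose upstream stretches are near-identical.

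Sequences are shown for Hist1h1t and Hist1h2ba, each beside a somatic relative, and for a pair of H4 genes. The acetylation of those H4 genes changed in opposite directions between c-Kit+ spermatogonia and PS. Whether sequence relates to acetylation was not tested. Each line gives the 250 bases upstream of a gene's start in RefSeq on GRCm38.p6, the RefSeq name of the mm10 assembly, 5′ to 3′ in the direction of transcription. Capitals mark matches on either strand to CCAAT (the core of the NF-Y site), ATTTGCAT (the octamer of H2B genes), AAACACA (an element described in H1 genes) and TATAAA.
Hist1h1t (chr13:23695561-23695810, plus strand): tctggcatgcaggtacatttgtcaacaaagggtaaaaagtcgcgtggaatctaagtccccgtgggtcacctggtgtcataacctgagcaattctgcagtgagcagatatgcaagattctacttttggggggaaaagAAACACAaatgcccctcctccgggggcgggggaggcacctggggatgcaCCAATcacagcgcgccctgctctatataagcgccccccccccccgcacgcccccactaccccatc
Hist1h1c (chr13:23738557-23738806, plus strand): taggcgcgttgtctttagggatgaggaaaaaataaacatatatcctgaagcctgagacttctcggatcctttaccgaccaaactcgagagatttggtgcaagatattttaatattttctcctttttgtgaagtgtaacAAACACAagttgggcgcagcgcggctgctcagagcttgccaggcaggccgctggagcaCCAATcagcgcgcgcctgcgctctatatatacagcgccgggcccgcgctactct
Hist1h2ba (chr13:23934157-23934406, minus strand): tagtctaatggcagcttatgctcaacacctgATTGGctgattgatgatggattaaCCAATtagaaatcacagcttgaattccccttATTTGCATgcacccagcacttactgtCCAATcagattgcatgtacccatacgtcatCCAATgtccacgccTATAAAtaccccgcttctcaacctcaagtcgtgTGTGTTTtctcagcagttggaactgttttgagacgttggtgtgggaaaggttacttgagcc
Hist1h2bb (chr13:23746484-23746733, plus strand): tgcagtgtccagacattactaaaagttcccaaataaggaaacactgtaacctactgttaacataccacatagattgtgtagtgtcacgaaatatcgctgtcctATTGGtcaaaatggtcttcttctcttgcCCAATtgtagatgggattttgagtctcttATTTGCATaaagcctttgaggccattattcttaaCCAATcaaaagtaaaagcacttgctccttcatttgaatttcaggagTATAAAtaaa
Hist1h4k (chr13:21750554-21750803, minus strand): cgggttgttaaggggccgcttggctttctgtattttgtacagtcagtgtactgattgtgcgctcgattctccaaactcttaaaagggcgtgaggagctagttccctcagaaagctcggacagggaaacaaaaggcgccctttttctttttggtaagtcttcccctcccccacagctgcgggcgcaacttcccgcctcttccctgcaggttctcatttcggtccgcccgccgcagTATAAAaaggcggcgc
Hist1h4h (chr13:23530794-23531043, plus strand): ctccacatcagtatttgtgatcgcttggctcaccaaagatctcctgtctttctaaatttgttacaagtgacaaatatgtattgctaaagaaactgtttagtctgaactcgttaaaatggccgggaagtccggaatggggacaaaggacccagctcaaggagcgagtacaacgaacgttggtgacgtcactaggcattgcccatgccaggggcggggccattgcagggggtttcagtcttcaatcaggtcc
The stretch printed for Hist1h2ba holds most of the upstream stretch of Hist1h2aa (chr13:23934187-23934436), which lies on the opposite strand. The bases nearest the start of Hist1h2aa, with a further TATAAA, are not fully printed. Hist1h2aa starts at 23934437 in RefSeq and at 23934462 in the annotation of the deposited peaks, while Hist1h2ba starts at 23934156 in both. Hist1h1t and its somatic relative Hist1h1c both carried AAACACA and CCAAT in the same order. Hist1h2ba and the somatic Hist1h2bb both carried the octamer, CCAAT and TATAAA, and Hist1h2ba additionally carried AAACACA on the other strand. Hist1h4h held none of these 4 motifs in this window and Hist1h4k held TATAAA alone.

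Sequences upstream of the start were present for 57 of the 63 genes. CCAAT was found in 47 of the 57 (82.5%), against 33.8% of 32851 RefSeq promoters of the same length. It was in 6 of 6 H1, 16 of 16 H2A, 14 of 14 H2B and 8 of 10 H3 promoters, and in 3 of 11 H4 promoters. The octamer was in 13 of 57 (22.8%, against 1.60% of all), 7 for H2A and 6 for H2B genes. AAACACA was in 9 of 57 (15.8%, against 6.25%), of which 5 were H1 genes. TATAAA was in 28 of 57 (49.1%, against 12.4%). None of the 4 motifs contains another, and a match describes the letters only.

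Peaks called per H3K27ac library ranged from 17877 to 73316, more in each of the 4 adult libraries than in any of the 8 spermatogonial ones. Read depth is unknown, and the background height, which would rise with it, ranged from 0.564 to 1.62. Thy1+ KO replicate 1 stood apart from the other spermatogonial libraries: its median fold enrichment over the 8139 promoters called in all 12 libraries was 18.2, against 8.16 to 11.3 in the other 7. None of the 16 input libraries had a peak at a histone promoter, while 11 to 22 promoters of any gene were called in each. Of the pachytene markers, 5 of 7 were called in both PS libraries and the same number in both RS libraries, with Ccna1 and Spag6l called in none. All 7 of 7 round spermatid markers were called in both RS libraries and 6 of those 7 in both PS libraries, so by calls neither list separated PS from RS. Summed fold enrichment did differ: 112.5 to 142.9 in PS and 96.3 to 99.7 in RS for the pachytene markers. For the round spermatid markers it was 53.3 to 99.9 in PS and 130.4 to 149.8 in RS. Of 5 markers of differentiating spermatogonia, Kit was the only one called in both c-Kit+ libraries of either genotype, no Thy1+ group had one in both libraries, and Kit was also called in both PS and both RS libraries. Of 7 markers of undifferentiated spermatogonia, 2 were called in both libraries of either Thy1+ group and 4 in both PS libraries, so that list did not single out the Thy1+ cells. The Scml2 promoter was not called in any WT library and was called in 4 KO libraries, and since the deleted part of the gene is not given in the sources used here, this does not check the knockout.

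Acetylation was called at 23 of the 50 histone promoters (46.0%) in all 12 libraries, against 54.1% of all promoters. These 23 were also the only ones called in all 8 spermatogonial libraries, where 8284 of 15033 promoters of any gene were. In all 4 adult libraries 43 of the 50 were called, and 11571 of 15033 promoters of any gene. The most sparsely called were Hist1h4n, an H4 gene called at 6.58 in Thy1+ KO replicate 1 and 4.80 in PS replicate 2, and Hist1h2af, an H2A gene called in both PS libraries. Histone promoters ranked low among the promoters of their own library. Their median percentile lay between 18.7 and 41.6, where the percentile ranks a promoter among all those called in that library. Peaks over them were narrower too. In PS the median peak width at histone promoters was 1313 and 1307 bp against 1798 and 1699 bp over all promoters, and in the spermatogonial libraries 351 to 800 bp against 746 to 1306 bp. The summit lay downstream of the start at 44.2% to 82.1% of called histone promoters in a library, against 75.9% to 81.4% of all promoters.

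**Figure D1:**
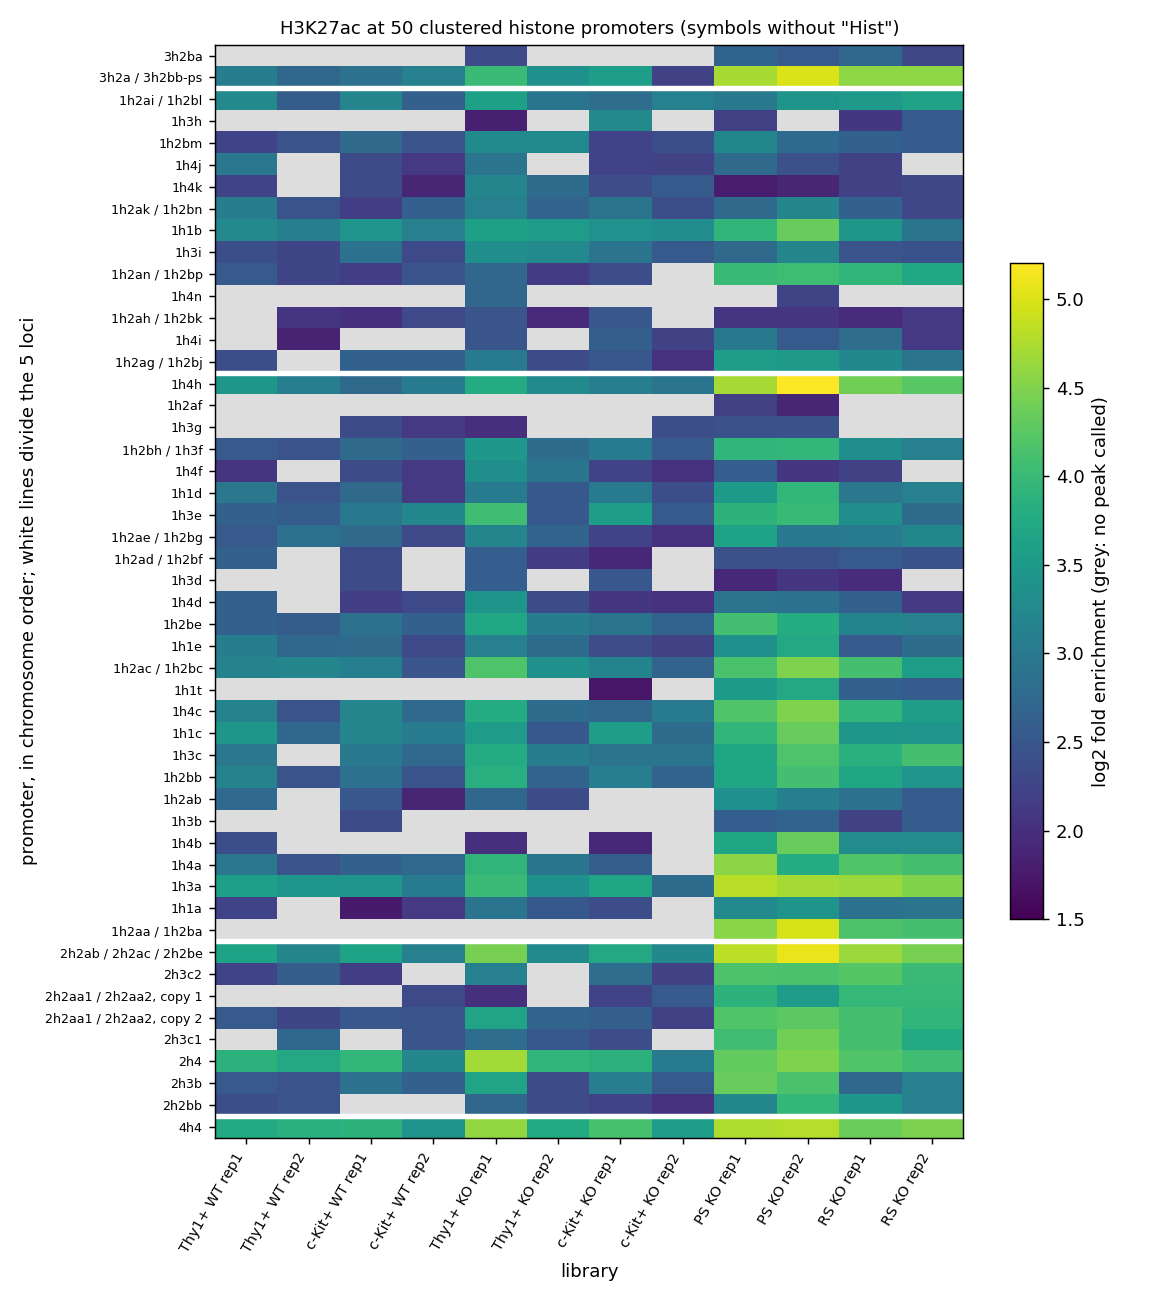
Log2 fold enrichment (colour) of the 50 histone promoters (rows, grouped by locus) in the 12 H3K27ac libraries (columns); grey marks promoters with no called peak. The adult columns hold most of the bright cells, and the row of Hist1h2aa and Hist1h2ba is grey in all 8 spermatogonial libraries.

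Over the 23 promoters called in every library, the median fold enrichment per library averaged 7.21 ± 1.66 (SD, n = 2) in Thy1+ WT, 6.81 ± 0.856 in c-Kit+ WT, 10.2 ± 3.52 in Thy1+ KO and 7.46 ± 1.48 in c-Kit+ KO. It was 16.4 ± 1.66 in PS and 10.9 ± 0.0940 in RS. All promoters followed the same order of stages, with 9.76 ± 2.25 in c-Kit+ KO, 21.2 ± 0.897 in PS and 16.6 ± 2.01 in RS. As deposited, 12 of the 50 histone promoters (24.0%) had all 4 adult values above every spermatogonial value, close to the 25.1% of all promoters that did. The higher level in adult cells was thus shared with the rest of the genome's promoters. In these bulk samples, fewer acetylated cells and less acetylation per cell cannot be told apart.

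By type, the order depended on which promoters were counted. Among those called in all 12 libraries H4 had the highest medians, from 4 of its 12 promoters, which gave 9.87 ± 2.42 (SD, n = 2) in c-Kit+ KO, 24.0 ± 1.54 in PS and 18.7 ± 1.21 in RS. The 7 H2A promoters gave 6.41 ± 1.64 in c-Kit+ KO, 18.4 ± 1.17 in PS and 14.8 ± 3.37 in RS. The 10 H2B promoters gave 6.96 ± 1.19, 14.4 ± 0.391 and 10.4 ± 0.529 in the same order. H2A and H2B share several promoters, so their medians are not separate measurements. The 5 H3 promoters gave 7.17 ± 1.90 in c-Kit+ KO, 15.6 ± 0.525 in PS and 9.41 ± 1.07 in RS. The 4 H1 promoters gave 7.67 ± 2.19, 15.6 ± 3.19 and 8.75 ± 0.900. Over all promoters called in a library, the PS medians were 11.8 ± 1.63 for H4, 11.9 ± 0.981 for H2A, 12.9 ± 2.09 for H1, 13.2 ± 0.904 for H2B and 15.0 ± 1.47 for H3, so H4 was then lowest, and the spread of H4 overlapped that of H2A, H1 and H2B. In RS they were 7.60 ± 0.0381 for H1, 9.41 ± 1.07 for H2B and for H3, 10.8 ± 1.501 for H4 and 12.7 ± 0.797 for H2A. H1 was the lowest of the 5 types in RS under both counts, and with a 500 bp window the H3 medians were 7.30 in PS and 7.26 in RS.

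**Figure D2:**
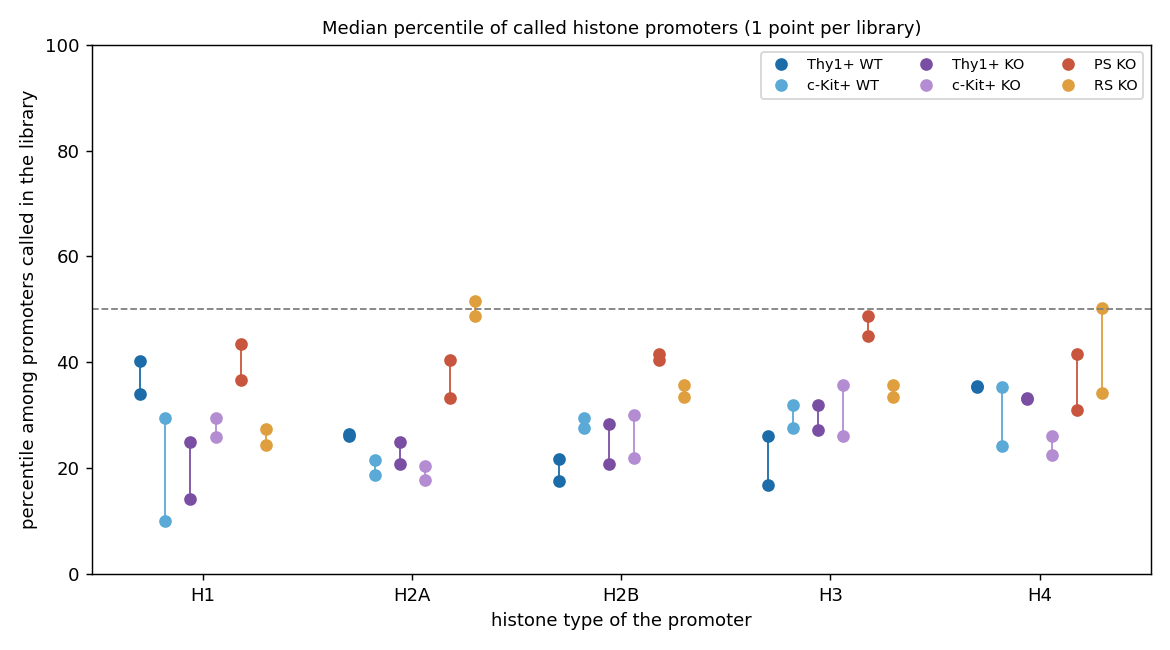
Median percentile of called histone promoters among all promoters called in the same library (vertical axis, in percent), by histone type; each point is 1 library, lines join the 2 replicates of a group and the dashed line marks the middle of the library. H1 promoters in RS lie at 24.4 and 27.3, below both PS libraries at 36.7 and 43.5, and H2A promoters in RS at 48.8 and 51.6.

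The histone promoter with the highest mean was Hist4h4, an H4 gene outside the large clusters, in Thy1+ WT (13.6 and 14.5), c-Kit+ WT (14.8 and 10.5) and c-Kit+ KO (17.5 and 11.7). In Thy1+ KO it was Hist2h4, another H4 gene, at 25.8 and 15.3. In PS the promoter of Hist2h2ab, Hist2h2ac and Hist2h2be ranked first at 28.6 and 34.1, and in RS Hist1h3a, an H3 gene, at 25.0 and 22.7. The lowest called in both libraries were Hist1h3i in Thy1+ WT (5.24 and 4.83), Hist1h1a in c-Kit+ WT (3.42 and 4.34) and Hist1h4d in c-Kit+ KO (4.26 and 4.08). Hist1h4k was lowest in PS (3.43 and 3.73), and the shared promoter of Hist1h2ah and Hist1h2bk in Thy1+ KO (5.57 and 3.84) and RS (3.91 and 4.33). H4 genes stood at both ends of the range.

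The testis forms TH2A and TH2B had the sharpest stage pattern. Their shared promoter, Hist1h2aa and Hist1h2ba, was not called in any of the 8 spermatogonial libraries, in which the lowest called fold enrichment of any peak was 3.31 to 3.84. It reached 23.3 and 31.5 in PS and 18.0 and 17.3 in RS. It was the only histone promoter called in all 4 adult libraries and in no spermatogonial one, a pattern shown by 7.32% of all promoters. Within the library it stood at percentile 77.1 and 90.0 in PS and 67.5 and 74.0 in RS, far above the median histone promoter. Its peaks, 4680 to 4994 bp long, were the longest at any histone promoter in each adult library. With uncalled values set to the lowest of the library, the change from c-Kit+ KO to PS was 1.85 on the log2 scale. Both c-Kit+ KO values were filled in this way, so the direction was fixed beforehand and the size depends on that setting. No p-value is given for it, because filled values have no measured spread. From PS to RS the change was -0.26 (SE 0.190, n = 2 per group, limma adjusted p = 0.493). The RS values lay below both PS values as deposited, and this difference did not pass the test.

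Hist1h1t was called in PS at 11.4 and 13.3 and in RS at 6.26 and 5.95. Among the spermatogonial libraries it was called only in c-Kit+ KO replicate 1, at 3.31, the lowest value of any peak in that library, from a peak of 148 bp with a height of 6. The 2 PS values lay well above the 2 RS values, with no overlap. Hist1h1t was at percentile 36.7 and 40.1 in PS and 17.7 and 17.5 in RS, lower than the TH2A and TH2B promoter. It fell by 0.66 on the log2 scale from PS to RS (SE 0.174, n = 2 per group, limma adjusted p = 0.0431). The adjusted p was 0.0625 with a 500 bp window, and 0.0907 without PS replicate 2, 0.235 without RS replicate 1 and 0.432 without RS replicate 2, over a range of 0.00393 to 0.432 in all alternatives. With uncalled values set to the lowest of the library, its change from c-Kit+ KO to PS was 0.72. The value of c-Kit+ KO replicate 2 was filled in this way, so the spread there was not measured and no p-value is given.

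**Figure D3:**
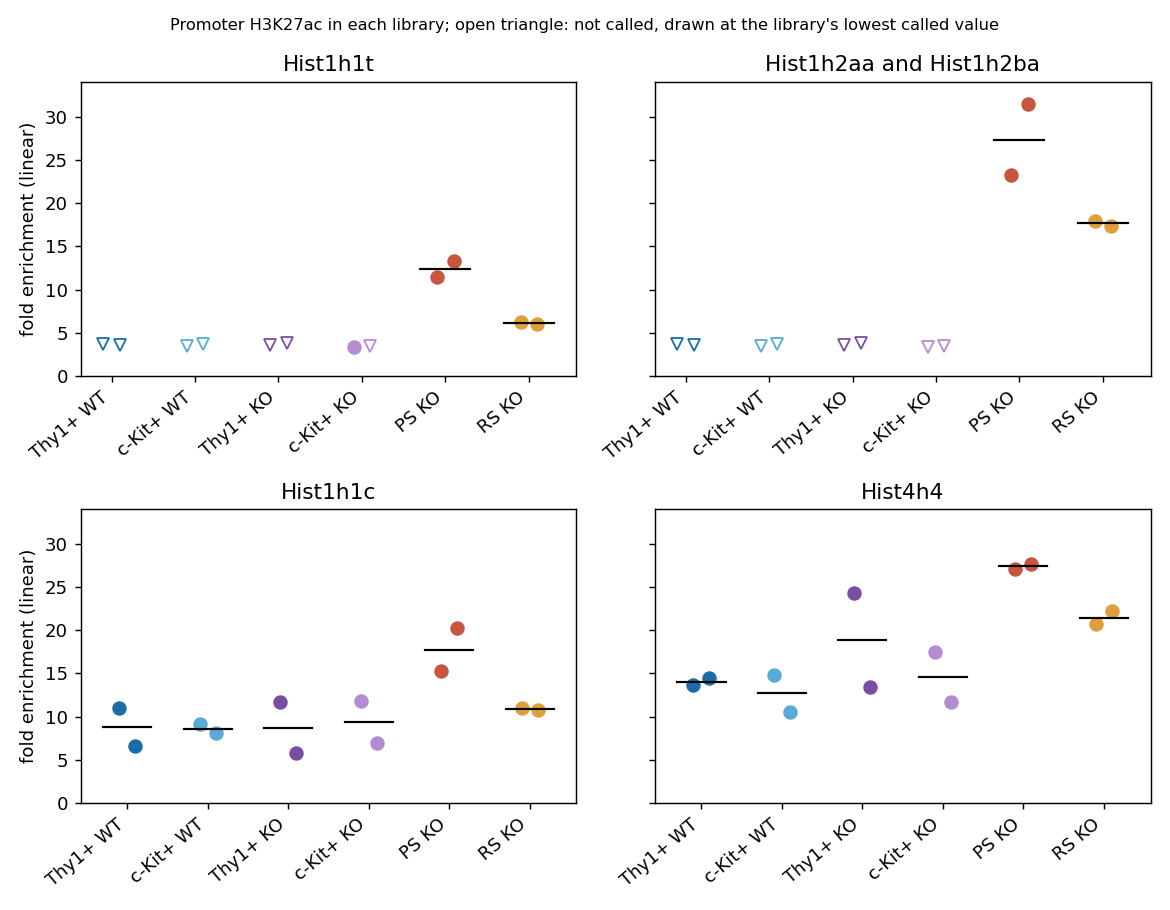
Fold enrichment (linear axis) in each library, as points coloured by group, at the promoters of the testis forms (upper panels) and of a somatic H1 gene and the H4 gene Hist4h4 (lower panels); bars are means of 2 libraries and open triangles mark libraries without a call, at the lowest value called there. The promoter of Hist1h2aa and Hist1h2ba lies between 17.3 and 31.5 in adult libraries, while Hist4h4 is called in all 12.

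The promoters most like each testis form over the 12 libraries were listed by Pearson correlation of centred log2 fold enrichment, with uncalled values at the lowest of the library. For Hist1h1t these were Lrrc24 (r = 0.996), Slc22a16, Plcd4, 4933412E24Rik and Pim2 (r = 0.989). For Hist1h2aa and Hist1h2ba they were Adam2 (r = 0.999), which encodes a sperm surface protein, Hdgfl1, 4930444F02Rik, 1700008K24Rik and Ptchd3. The 12 points share stages and depth, and each of these promoters was called in only 4 or 5 libraries.

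The knockout was compared with wild type in each spermatogonial population, and no histone promoter tested passed. In Thy1+ cells 0 of 26 tested histone promoters passed limma at an adjusted p under 0.05, with 2 at an unadjusted p under 0.05, where 0.0% of 9013 promoters passed and 3.81% did so unadjusted. In c-Kit+ cells 0 of 29 passed, with 0 at an unadjusted p under 0.05, where 0.0341% of 8796 promoters passed and 5.13% did so unadjusted. With both populations in 1 fit, 0 of 23 passed, with 2 unadjusted, where 0.0% of 8284 did and 4.94% unadjusted. The median change of the histone promoters was -0.05, 0.04 and 0.02 on the log2 scale in the 3 fits, beside -0.02 to 0.00 over all promoters. Leaving out any 1 library left these counts at 0. The centring took out a shift of 0.50 in Thy1+ cells, where replicate 1 of the KO stood high, and 0.24 in the joint fit.

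Hist1h1c, the linker histone gene with the smallest p among decreases in Thy1+ cells, had 11.0 and 6.64 in WT and 11.6 and 5.76 in KO. The groups overlapped as deposited. Relative to the median promoter the change was -0.56 (SE 0.227, limma adjusted p = 0.999). The smallest p among increases was at Hist1h3i, with a log2 change of 0.47. All 4 tested H1 promoters had negative values in Thy1+ cells, from -0.56 to -0.09, and 3 of 4 had positive ones in c-Kit+ cells. In c-Kit+ cells the smallest p values were at Hist1h2ae and Hist1h2bg (log2 change -0.40, limma adjusted p = 0.980) and at Hist1h4k (0.34, limma adjusted p = 0.997), and in the joint fit at Hist1h1e (-0.33) and Hist1h3i (0.31).

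Calls differed between genotypes at a few histone promoters that could not be tested. Hist1h4i (6.15 and 4.66) and Hist2h2bb, an H2B gene (4.73 and 4.08), were called in both c-Kit+ KO libraries and in neither c-Kit+ WT library, 2 of 50 where 0.605% of all promoters had this pattern. Hist1h2ab, an H2A gene, showed the reverse (5.70 and 3.72 in c-Kit+ WT), 1 of 50 where 0.306% did. The lowest fold enrichment called in these 4 libraries was 3.31 to 3.72. In Thy1+ cells 0 of 50 had either pattern, where 1.87% and 0.02% of all promoters did.

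The step from Thy1+ to c-Kit+ spermatogonia gave no call either. In WT 0 of 25 tested histone promoters passed limma, with 0 at an unadjusted p under 0.05, where 0.0116% of 8617 promoters passed and 8.14% did so unadjusted. In KO 0 of 29 passed, with 2 unadjusted, where 0.0% of 8981 did and 9.98% unadjusted. Hist1h3e, an H3 gene, had the smallest p in WT with 6.29 and 6.03 in Thy1+ and 7.98 and 9.30 in c-Kit+ cells. Those groups did not overlap, and the change of 0.48 had a limma adjusted p of 0.622. In KO it was Hist1h1c (0.65, limma adjusted p = 0.320), with 11.6 and 5.76 in Thy1+ and 11.8 and 7.00 in c-Kit+ cells, and among decreases Hist1h4f (-0.51, limma adjusted p = 0.433). The shared promoter of Hist1h2ac and Hist1h2bc had the smallest p among decreases in WT, at -0.38. By calls, Hist2h2bb was called in both Thy1+ WT libraries and in neither c-Kit+ WT library (5.24 and 5.43, a pattern of 0.812% of all promoters), Hist1h3g the reverse (5.13 and 4.34, 1.41%), and Hist1h2ab in both Thy1+ KO libraries and in neither c-Kit+ KO library (6.58 and 5.12, 1.78%). The difference between genotypes in this step, a test added after the data were seen, passed limma at 0 of 23 histone promoters, with 3 at an unadjusted p under 0.05 and a smallest adjusted p of 0.999. Over all 8284 promoters it passed at 0, with 367 unadjusted.

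Between c-Kit+ spermatogonia and PS in the knockout, 33 histone promoters were called in all 4 libraries and could be tested. Relative to the median promoter 3 rose and 7 fell, and 6 of the 7 that fell lay in the 21.7 Mb cluster of chromosome 13. Among all 9289 promoters tested 24.0% passed limma, 7.54% higher and 16.5% lower. The median log2 change was -0.07 for the histone promoters and -0.09 for all. As deposited nearly all promoters were higher in PS: the centring took out a shift of 1.11 on the log2 scale. Without centring, 26 of the 33 histone promoters were higher and 1 was lower, beside 81.6% and 0.452% of all promoters.

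Hist1h4k, an H4 gene whose upstream stretch is near-identical to that of Hist1h4j, was that 1 lower promoter. It measured 5.20 and 5.83 in c-Kit+ KO and 3.43 and 3.73 in PS. The PS values stood at percentile 1.28 and 2.09, near the lowest fold enrichment called in those libraries (3.05 and 3.20). The groups did not overlap, and the values fell while those of most promoters were higher. Relative to the median promoter it fell by 1.73 (SE 0.205, n = 2 per group, limma adjusted p = 0.000142), and without centring by 0.62 (limma adjusted p = 0.0396). The adjusted p was 0.0879 without c-Kit+ KO replicate 2.

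The next largest falls relative to the median promoter were at Hist1h4f (-0.89, SE 0.212, limma adjusted p = 0.00757), the shared promoter of Hist1h2ai and Hist1h2bl (-0.88), Hist1h3i (-0.86) and the shared promoter of Hist1h2ak and Hist1h2bn (-0.78). As deposited these 4 promoters passed in neither direction. Hist1h3i, for example, had 7.57 and 5.83 in c-Kit+ KO and 6.86 and 9.06 in PS, groups that overlap. Without centring their changes were 0.22 for Hist1h4f, 0.23 for Hist1h2ai and Hist1h2bl, 0.25 for Hist1h3i and 0.32 for Hist1h2ak and Hist1h2bn. The H4 genes Hist1h4i (-0.75) and Hist1h4j (-0.74) also fell relative to the median promoter. Hist1h4j and Hist1h4k have near-identical upstream stretches, so their values may not be separate measurements.

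The promoters that rose were in other clusters. Hist1h4h, an H4 gene of the 23.5 Mb cluster, had 8.51 and 7.58 in c-Kit+ KO and 25.9 and 36.8 in PS. These groups lay far apart, and the rise relative to the median promoter was 0.84 (SE 0.202, n = 2 per group, limma adjusted p = 0.00837). The promoter of Hist3h2a, an H2A gene on chromosome 11, had 11.8 and 4.66 in c-Kit+ KO and 26.3 and 32.0 in PS, a rise of 0.86 (limma adjusted p = 0.0284) that also covers the pseudogene Hist3h2bb-ps. Without c-Kit+ KO replicate 2 it was 0.38 (limma adjusted p = 0.243), without PS replicate 2 0.69 (0.211), without PS replicate 1 0.92 (0.0700), and without c-Kit+ KO replicate 1 1.25 (1.21e-05). Copy 2 of the Hist2h2aa1 and Hist2h2aa2 promoter (start 96245457) had 6.15 and 4.66 against 18.3 and 19.2, a rise of 0.70 (limma adjusted p = 0.0124). With 1 library left out, the rise ran from 0.62 to 0.69 at this copy and from 0.56 to 1.01 at Hist1h4h. Those ranges show size only and not whether a call holds, since 1 group then has 1 library.

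By position, 0 rose and 6 fell of 9 tested in the 21.7 Mb cluster, with a median change of -0.75. Among the 24 tested at the other loci 3 rose and 1 fell, with a median of 0.11. In the 23.5 Mb cluster 1 rose and 1 fell of 15. By type, 1 rose and 4 fell of 9 H4 promoters, 2 rose and 2 fell of 9 H2A, 1 rose and 2 fell of 12 H2B, 0 rose and 1 fell of 7 H3, and 0 of 4 H1 promoters passed. The number that fell in the 21.7 Mb cluster was 1 with quantile normalization, 1 without centring and 0 without c-Kit+ KO replicate 2, when no promoter of any gene passed. It was 8 without c-Kit+ KO replicate 1, 3 without PS replicate 1 and 4 without PS replicate 2.

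The summed fold enrichment of the 7 round spermatid markers was 0 in both c-Kit+ KO libraries and 53.3 to 99.9 in PS. That of 5 Sertoli cell markers was 9.91 to 25.5 in c-Kit+ KO and 34.7 to 37.9 in PS, with Rhox5 called in neither group. That of 5 Leydig cell markers was 5.83 to 16.6 and 22.1 to 25.1, with Cyp17a1 and Hsd3b1 called in neither. For 4 blood and endothelial markers it was 5.25 to 6.15 and 20.6 to 21.3, with Ptprc called in neither. For 2 peritubular myoid markers it was 0 to 10.4 and 0 to 4.80. Their part in the histone changes was not tested.

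Histone promoters that had a call in both PS libraries and in neither c-Kit+ KO library were 5 of 50: Hist3h2ba (6.48 and 5.86 in PS), Hist1h2af (4.58 and 3.73), Hist1h2ab (10.3 and 8.53), Hist1h3b (6.10 and 6.40), and the promoter of Hist1h2aa and Hist1h2ba. Among all promoters 13.7% had this pattern. Hist1h2af, an H2A gene, was called nowhere but in PS. Hist1h4b, an H4 gene, was called weakly in single spermatogonial libraries (5.24, 4.05 and 3.78) and at 13.0 and 20.3 in PS and 9.78 and 9.74 in RS. Its adult values all exceeded the spermatogonial ones.

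**Figure D4:**
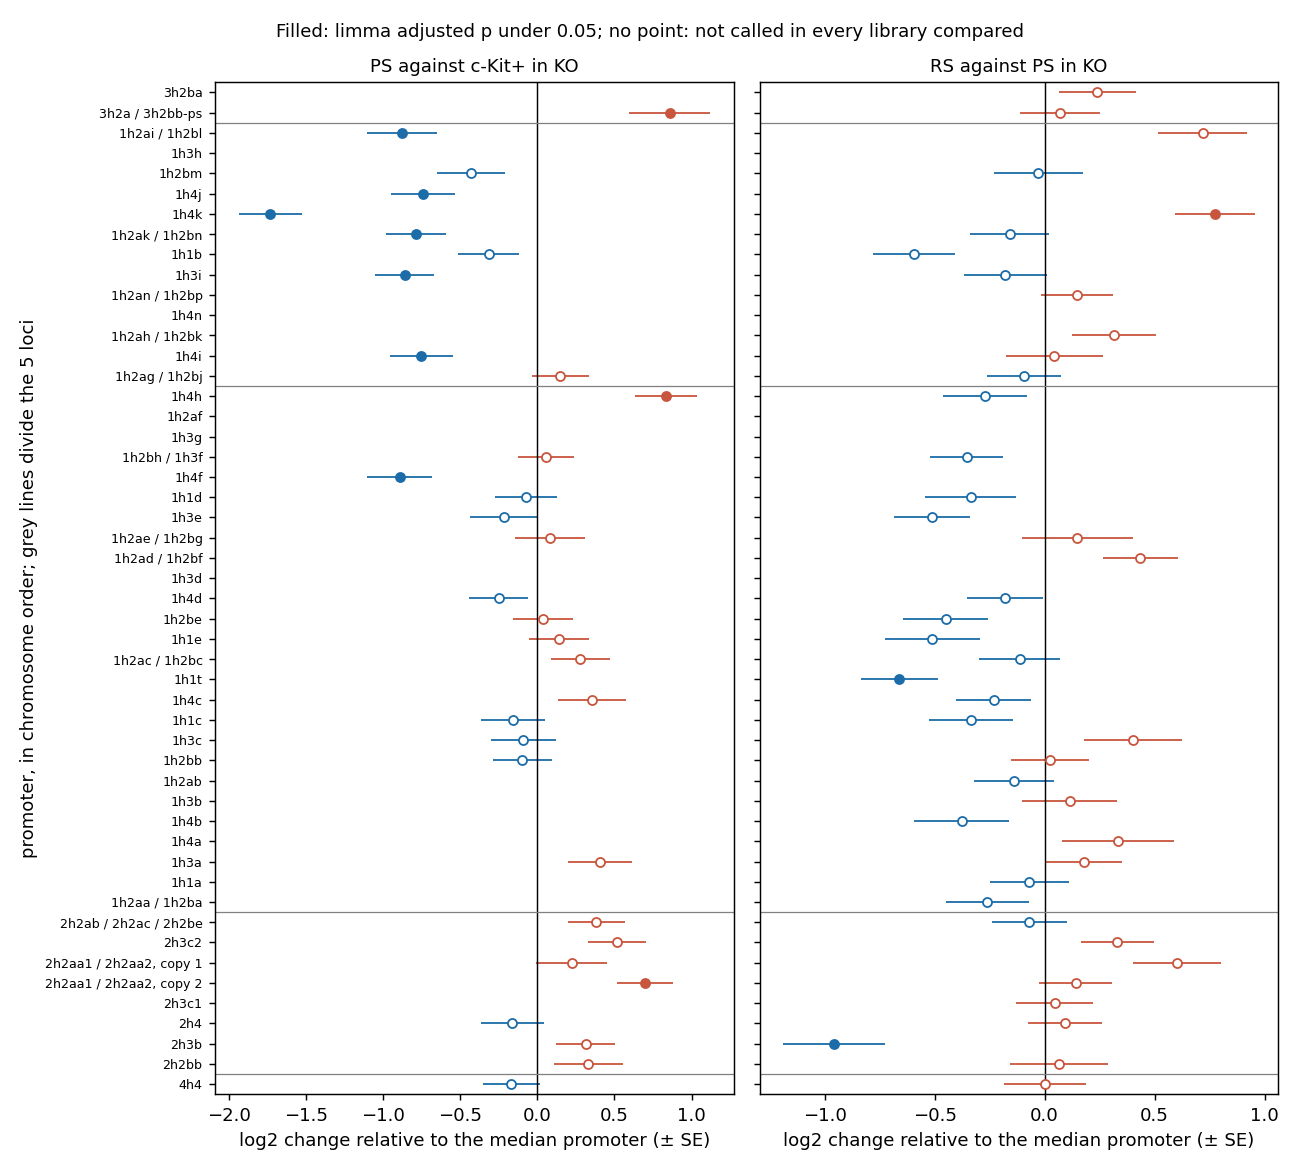
Log2 change relative to the median promoter, with its SE, for histone promoters in chromosome order, from c-Kit+ spermatogonia to PS (left, 33 tested) and from PS to RS (right, 43 tested), both in the knockout; filled points passed limma at an adjusted p under 0.05, red is higher and blue lower. On the left the filled blue points gather in the 21.7 Mb cluster (the second block), where without centring only Hist1h4k is lower; on the right 3 points are filled.

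Between PS and RS in the knockout, 43 histone promoters were tested, of which 1 rose and 2 fell relative to the median promoter. Among all 11571 tested, 8.57% passed limma, 6.51% higher and 2.07% lower. The median change was -0.03 for the histone promoters and 0.02 for all. Without centring, which took out a shift of -0.36, 0 were higher and 10 lower of the 43, beside 4.06% and 15.3% of all promoters.

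Hist2h3b, an H3 gene of the chromosome 3 cluster, had 20.2 and 17.6 in PS and 6.65 and 8.66 in RS. The groups did not overlap, and it fell by 0.96 (SE 0.230, n = 2 per group, limma adjusted p = 0.0300). Hist1h4k rose by 0.77 relative to the median promoter (SE 0.181, limma adjusted p = 0.0271), from 3.43 and 3.73 to 4.69 and 4.87. Its values were thus low in PS, near the lowest called there, and intermediate in RS. Without centring the change was 0.42 (limma adjusted p = 0.157). Hist1h1t was the other that fell. None of the 3 passed without RS replicate 2, when no promoter of any gene did, or without RS replicate 1, when 1.89% of all promoters did.

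All 6 H1 promoters had negative values from PS to RS, from -0.66 to -0.07 with a median of -0.42, though only Hist1h1t passed. Hist1h1b had 15.3 and 20.3 in PS and 11.0 and 7.57 in RS (-0.59, limma adjusted p = 0.0834), and Hist1h1e 10.3 and 13.3 against 5.87 and 7.03 (-0.51, limma adjusted p = 0.200). In both the groups did not overlap. The medians of the other types were 0.11 for H2A, 0.02 for H2B, 0.05 for H3 and 0.00 for H4, with 0 of 14, 0 of 17, 1 of 9 and 1 of 9 promoters passing. Without centring, the 10 lower promoters were Hist1h1b, Hist1h1c, Hist1h1d, Hist1h1e, Hist1h1t, Hist1h2be, Hist1h3e, Hist1h4b, Hist2h3b and the shared promoter of Hist1h2bh and Hist1h3f.

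Called in both PS libraries and in neither RS library were Hist1h2af and Hist1h3g, where 3.09% of all promoters had this pattern; Hist1h3g, an H3 gene, had 5.34 and 5.33 in PS. No histone promoter was called in both RS libraries and in neither PS library, a pattern of 2.23% of all promoters. The summed level of Sertoli markers was 34.7 to 37.9 in PS and 11.0 to 13.5 in RS, that of Leydig markers 22.1 to 25.1 and 4.30 to 5.41, and that of round spermatid markers 53.3 to 99.9 and 130.4 to 149.8. Blood and endothelial markers went the other way from the Sertoli and Leydig lists, with 20.6 to 21.3 in PS and 25.4 to 29.3 in RS. Peritubular myoid markers had 0 to 4.80 in PS and 0 in RS. Their part in these changes was not tested.

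Genes that work with the clustered histones were read from 3 lists. Of 24 factors of histone gene transcription and mRNA 3′ processing, 4 rose and 0 fell among 23 tested from c-Kit+ to PS in the knockout: Slbp, the stem-loop binding protein, by 1.00 (SE 0.208, limma adjusted p = 0.00357), Cdk2 by 0.79, Zfp473 by 0.69 and Casp8ap2, a part of the histone locus body, by 0.68. Slbp had 10.9 and 5.83 in c-Kit+ KO and 33.6 and 35.2 in PS, and the groups did not overlap. With 1 library left out, the changes ran from 0.74 to 1.17 at Slbp, 0.41 to 0.88 at Zfp473 and 0.56 to 0.71 at Casp8ap2. These ranges show size only and not whether a call holds, since 1 group then has 1 library. Over all promoters 7.54% were higher and 16.5% lower. The median of the list was -0.09, equal at this rounding to that of all promoters. From PS to RS 0 of 24 passed, beside 8.57% of all promoters.

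Of 21 variant histones, which are made outside S phase or only in some tissues, 11 were tested from c-Kit+ to PS. Among these 1 rose and 2 fell, where 24.0% of all promoters passed, 7.54% higher and 16.5% lower. H2afj rose (0.81), and Cenpa, the centromeric H3, and H2afy2, a macroH2A gene, fell relative to the median promoter (-0.79 and -1.27). H2afy2 had 7.57 and 5.25 in c-Kit+ KO, 4.96 and 6.40 in PS and no call in RS. From PS to RS 14 were tested, and 3 rose and 0 fell, where 6.51% of all promoters were higher and 2.07% lower. Hils1, a linker-like histone of spermatids, had 20.2 and 9.60 in PS and 35.6 and 26.0 in RS, a rise of 1.48 (SE 0.306, limma adjusted p = 0.0158). H1fnt, the testis linker histone H1T2, had 16.0 and 10.1 against 23.5 and 26.0, a rise of 1.31 (SE 0.252, limma adjusted p = 0.0120). Both lie outside the clusters and were called only in the 4 adult libraries, and their values rose where that of Hist1h1t fell. The other was Cenpa (0.78). Without RS replicate 1 the limma adjusted p values of the 3 were 0.0529 for H1fnt, 0.126 for Hils1 and 0.198 for Cenpa, and none passed without RS replicate 2 either.

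Of 26 S-phase replication genes, 3 rose (Asf1b by 1.02, Mcm7 by 0.67 and Gins1 by 0.62) and 2 fell (Tyms, -0.93, and Pola1, -0.71) among 26 tested from c-Kit+ to PS, relative to the median promoter. Together 5 of 26 passed, beside 24.0% of all promoters, and the list's median was -0.02. With 1 library left out, the rises ran from 0.81 to 1.12 at Asf1b, 0.48 to 0.75 at Mcm7 and 0.45 to 0.67 at Gins1. The falls ran from -1.09 to -0.87 at Tyms and -0.86 to -0.67 at Pola1. Here too the ranges show size only and not whether a call holds. From PS to RS 0 of 26 passed, beside 8.57% of all promoters. In the comparisons among spermatogonia 0 promoters of the 3 lists passed limma.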

How the data were processed

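Each library had its own deposited peak table, so peaks were not called on pooled replicates. Per the submitters' processing notes, Bowtie, MACS2 and the mm10 build were used, and versions and read filters are not given in the sources used here. Per the file headers, a line gives the extent of a peak, a summit, its signal height, a fold enrichment, a −log10 q-value, and a class and gene. The deposited fold enrichment is a ratio of height to background, and in each library it equalled (height + 1)/(background + 1) with a background constant to a factor of 1.00002, so it carries no local or input control. The deposited signal height is a whole number per summit, and the deposited −log10 q of 5 served as a stricter threshold. Depth is unknown, and no interval that needs counts was computed.

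The 12 H3K27ac libraries were grouped by their titles, and the 16 inputs served as background. Listed starts of promoter-class lines within 1000 bp were joined into promoters, mitochondrial lines were left out, and gene names shared by several lines were resolved by start. For each of 7 comparisons, promoters called in every library compared were tested on log2 fold enrichment, centred on each library's median, with limma 3.58.1 (R 4.3.3) and Benjamini-Hochberg adjustment over all of them, at 0.05, so promoters without a call in 1 library have no test. The script was tested on simulated data. Members, lists, markers and tests were chosen with earlier results of these data known. Named were the testis forms, promoters past the threshold (at most 5 in each direction, the rest as counts or in passing), otherwise the smallest p in each direction, each group's highest and lowest promoter, and promoters called in 1 stage and absent from another. Hist1h4i, Hist1h4j, Hist1h4b, Hist1h1b and Hist1h1e were named after their values were seen. Alternatives were quantile normalization, no centring, a replicate block, a stricter threshold, a 500 bp window, uncalled values set to the library's lowest, merged overlapping regions (also with at least 50% overlap), exclusion of promoters called in an input, and leaving out each library. Promoter sequences and motif shares came from RefSeq (GRCm38.p6).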

Additional observations from a re-analysis of the deposited data

How the results depend on the processing

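In the comparison of PS with c-Kit+ cells, the 10 histone promoters that passed became 4 with quantile normalization, 27 without centring, 3 with stricter peaks and 18 with uncalled values set to the lowest, and ranged from 0 to 15 when 1 library was left out (0 without c-Kit+ KO replicate 2, 5 without PS replicate 1, 4 without PS replicate 2). In RS against PS, the 3 became 1 with quantile normalization, 10 without centring and 5 with merged regions, and ranged from 0 to 6 when 1 library was left out (0 without either RS replicate). The median level of histone promoters over libraries was 6.94, and 8.08 with stricter peaks, which drop weak calls. Without centring, changes turned positive at Hist1h2ai and Hist1h2bl (0.23), Hist1h2ak and Hist1h2bn (0.32), Hist1h3i (0.25), Hist1h4f (0.22), Cenpa (0.32), Pola1 (0.40) and Tyms (0.17), all from c-Kit+ to PS, because the shift of all promoters was kept. For the other alternatives the cause was not tested. Of the counts of histone promoters passing, 82 stayed within 1.5 times and 13 did not. Of the median changes of histone promoters 53 stayed within their spread with the same sign and 42 did not, and of the median levels by type 41 did and 19 did not; the H3 median in PS was 7.30 with a 500 bp window.

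Replicate numbers are shared between groups, but same-numbered samples did not deviate together promoter by promoter (correlations from -0.00 to 0.14 over promoters). Centred values were used there, so a difference running through a whole library could not show. Replicate 1 had more peaks and a higher background height than replicate 2 in each H3K27ac group. Examples are 19135 against 17877 peaks in Thy1+ WT and 36362 against 22949 in c-Kit+ KO. Whether same-numbered samples were handled together was not tested. With a replicate block, 10 histone promoters passed in PS against c-Kit+ and 4 in RS against PS, and 0 in each of the other 5 comparisons.

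With 2 libraries per group and no read depth, the precision of a value near the lowest called one is unknown. A promoter that is not called is not shown to lack acetylation.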
